A study of Mus musculus with 9 samples.

Results

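The genes described here build and run the DNA replication fork: the origin recognition complex, the factors that load and activate the MCM helicase, the polymerases and primase, the sliding clamp with its loaders, and the proteins that process, protect and dismantle the fork. They were taken from a list of 55 genes and matched by gene symbol to probe sets that carry a single symbol. Such a probe set was found for 54 of the 55, out of 18193 genes on the array, and all 54 passed the filter on dim probe sets, which kept 12715 genes. The remaining gene, Chaf1a, was not analysed here.

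Total RNA was measured on 9 Affymetrix arrays, 3 for each of 3 groups of cells derived from BC3H1, a mouse brain tumour line with muscle-like properties. Rapamycin-sensitive cells, the parental line, received either the solvent DMSO or 100 nM rapamycin for 24 h. The resistant line, RR1, had been selected by 6 months of growth in 1 uM rapamycin and was kept in it. Rapamycin inhibits the kinase complex mTORC1. Dose and exposure differ between the 2 rapamycin groups, RR1 is a single line, and a resistant group without the drug was not analysed here, so line, selection and drug cannot be told apart in its comparisons. Nothing in the labels states that replicate arrays stem from independent cultures; p-values therefore cover array-to-array spread, which may be technical.

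Replication starts in G1 phase, when the origin recognition complex, Cdc6 and Cdt1 load a ring of MCM2-7 onto DNA. In S phase the kinase Cdc7-Dbf4 and other factors recruit Cdc45 and the GINS complex, which turns the ring into the active helicase. Many of these genes are textbook targets of the E2F transcription factors and are transcribed around the start of S phase, so their messenger RNA is commonly high in dividing cells and low in resting ones. In RNA from a whole culture, fewer cells in S phase and less RNA per cell cannot be told apart.

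The third DMSO array stood apart from the rest, with a median signal of 66.0 against 33.3 to 44.2 on the other 8. Summed signals of 13 muscle identity markers were 43139 to 56740 on the DMSO arrays, 55099 to 58785 on the sensitive rapamycin arrays and 20611 to 22461 on the resistant arrays. Such a sum is carried by its brightest genes. Of 10 markers tested in the resistant line against DMSO, 8 were lower and 1 higher (adjusted p under 0.05 in limma; 25.8% and 25.9% of all genes). Their changes ranged from -6.54 to 2.37. Among the 13 markers Acta2, Tagln, Vim and Myf5 were bright in the parental line, while Myod1 (group means 18.8 to 23.8) and Chrnd (3.33 to 10.0) were close to or below the filter limit of 22.2. The markers of leukocytes, endothelium, epithelium, glia and neurons, 11 in all, summed to 220 to 418 on 8 arrays and to 1160 on the third DMSO array; none had a group mean of 0, and Olig2 had group means of 1.98 to 7.16. The part of these differences in the results was not tested, but counts without the third DMSO array stand beside the main ones.

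Rapamycin lowered almost the whole replication set in the sensitive cells. Of 54 genes, 53 were called lower and none higher at an adjusted p under 0.05 in limma (52 lower without the third DMSO array). Of all 12715 genes tested, 15.2% were called lower and 20.4% higher, 35.6% together. The exception was Orc5. The median log2 change was -1.84, against 0.03 for all genes, and the median gene kept 26.6% of its DMSO signal. A fall of at least 2-fold was called for 45 of the 54, against 3.96% of all genes, and a rise of that size for none, against 2.08%. The 3 rapamycin arrays lay below all 3 DMSO arrays for 53 genes, a pattern found in 18.1% of all genes. Changes are on the log2(signal + 16) scale, which understates those of dim genes, and the ± after a change is its standard error.

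**Figure D1:**
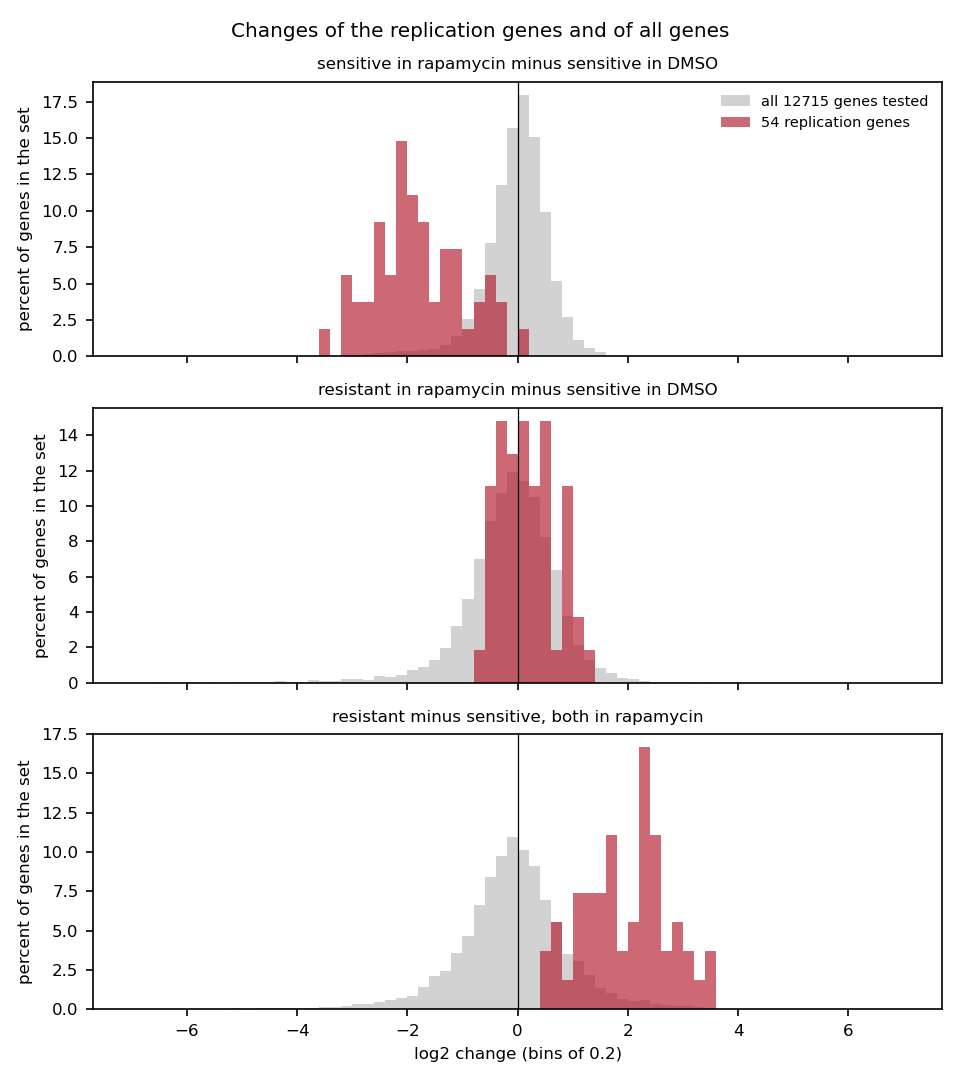
Distribution of log2 changes in the 3 comparisons, as the percentage of genes per bin of 0.2, for the 54 replication genes (red) and all 12715 genes tested (grey). The replication genes lie left of the main body of genes in the top panel (median -1.84), within it in the middle panel (median 0.13) and to its right in the bottom panel (median 2.07).

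Since nearly all members moved together, their promoters were searched for the E2F site. RefSeq promoter windows (GRCm38.p6) reaching from 250 bases before the annotated start to 50 after it were held for 44 of the 54 genes. The motifs were the 4 octamers TTTGGCGC, TTTCCCGC, TTTGCCGC and TTTCGCGC on either strand, overlaps allowed. At least 1 octamer was present in 17 of 44 member genes (38.6%), against 475 of 10260 tested genes with a window (4.63%) and 2.60% of all 27025 genes in the table. The 17 genes were Orc1, Orc3, Cdc6, Cdt1, Mcm3, Mcm5, Mcm6, Mcm7, Gins3, Topbp1, Pola1, Pold1, Pold3, Pole2, Rfc3, Lig1 and Clspn. The median GC content of the windows was 61.3% for members, 60.3% for tested genes and 52.7% for all windows. CCAAT or its complement was less selective: it was present in 24 of 44 members (54.5%) and in 43.1% of tested genes.

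Members with and without an octamer had similar medians in the sensitive cells, with no test made: the change was -1.84 in the median of the 17 with a match (range -3.17 to -0.28) and -1.70 for the 27 without (range -3.47 to 0.00). The 250 bases before the start are shown for the 2 genes with an octamer that fell most, Mcm5 and Cdc6, and the 2 that fell least, Gins3 and Orc3, read 5′ to 3′ on the gene's strand, with octamers in capitals.
Mcm5, chr8:75109259-75109508, strand +: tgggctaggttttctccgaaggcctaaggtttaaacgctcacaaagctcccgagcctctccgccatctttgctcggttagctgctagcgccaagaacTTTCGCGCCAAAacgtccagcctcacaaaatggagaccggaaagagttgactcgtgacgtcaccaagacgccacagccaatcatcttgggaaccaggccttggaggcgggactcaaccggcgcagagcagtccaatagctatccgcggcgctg
Cdc6, chr11:98907901-98908150, strand +: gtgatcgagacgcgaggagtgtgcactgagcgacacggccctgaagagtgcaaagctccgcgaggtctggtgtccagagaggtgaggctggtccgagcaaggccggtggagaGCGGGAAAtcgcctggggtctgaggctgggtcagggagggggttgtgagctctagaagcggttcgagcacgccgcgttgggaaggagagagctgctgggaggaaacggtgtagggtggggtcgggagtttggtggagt
Gins3, chr8:95633309-95633558, strand +: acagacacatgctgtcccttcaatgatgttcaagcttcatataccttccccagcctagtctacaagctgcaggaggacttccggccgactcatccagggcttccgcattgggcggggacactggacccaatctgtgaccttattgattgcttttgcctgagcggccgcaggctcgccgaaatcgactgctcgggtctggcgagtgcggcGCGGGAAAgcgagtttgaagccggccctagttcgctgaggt
Orc3, chr4:34614943-34615192, strand -: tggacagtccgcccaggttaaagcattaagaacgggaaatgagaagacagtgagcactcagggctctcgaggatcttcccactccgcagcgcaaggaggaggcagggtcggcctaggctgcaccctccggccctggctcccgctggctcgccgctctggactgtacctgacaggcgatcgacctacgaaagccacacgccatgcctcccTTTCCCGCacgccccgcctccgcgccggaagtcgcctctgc
In Mcm5 a pair of matches, TTTCGCGC and GCGCCAAA, overlaps to form 1 palindrome-like stretch that begins 153 bases before the start. The Cdc6 match, GCGGGAAA, begins 138 bases before it. Those of Gins3 (GCGGGAAA) and Orc3 (TTTCCCGC) are the same octamer on opposite strands, and each begins 41 bases before the start. These genes were picked among those with an octamer, so its presence in them is not a result. Among all members with a window, those at the ends of the range, Lrr1 (-3.47) and Orc5 (0.00), had none. A match describes letters in this window, not a bound site.

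Origin recognition was the role with the smallest falls. Of the 6 subunits of the complex, which marks origins and recruits the loading factors, 5 were called lower with a median change of -0.64. Orc1, the subunit whose level follows the cell cycle, had signals of 110.4, 129 and 187 on the 3 DMSO arrays and 53.3, 7.90 and 40.7 on the rapamycin arrays. It changed by -1.77 ± 0.31 (adjusted p = 0.000248), and the second rapamycin array was far below the other rapamycin arrays. Orc6 gave 1643, 1669 and 1491 in DMSO and 543, 665 and 657 in rapamycin, a clear separation and a change of -1.35 ± 0.09 (adjusted p = 1.36e-09).

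The core subunits moved less. Orc2 changed by -0.97 ± 0.09 and kept 49.7% of its DMSO signal. Orc4 changed by -0.30 ± 0.10 (adjusted p = 0.0197) and Orc3 by -0.28 ± 0.09 (adjusted p = 0.0241). Orc5 had signals of 306, 319.9 and 294 in DMSO and 308, 335 and 281 in rapamycin; the groups overlapped completely, and the change was 0.00 ± 0.11 (adjusted p = 0.985, 95% interval -0.22 to 0.23). The calls of Orc3 and Orc4 were fragile. When all probe sets of a gene were averaged, Orc3 changed by 0.14 (adjusted p = 0.428) and Orc4 by -0.16 (adjusted p = 0.177), and a second Orc3 probe set was called higher, at 0.62. Without the first rapamycin array both calls were lost (adjusted p = 0.106 for Orc3 and 0.0821 for Orc4), as was that of Orc3 without the third DMSO array (0.0767) and that of Orc4 without the second (0.0876).

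**Figure D2:**
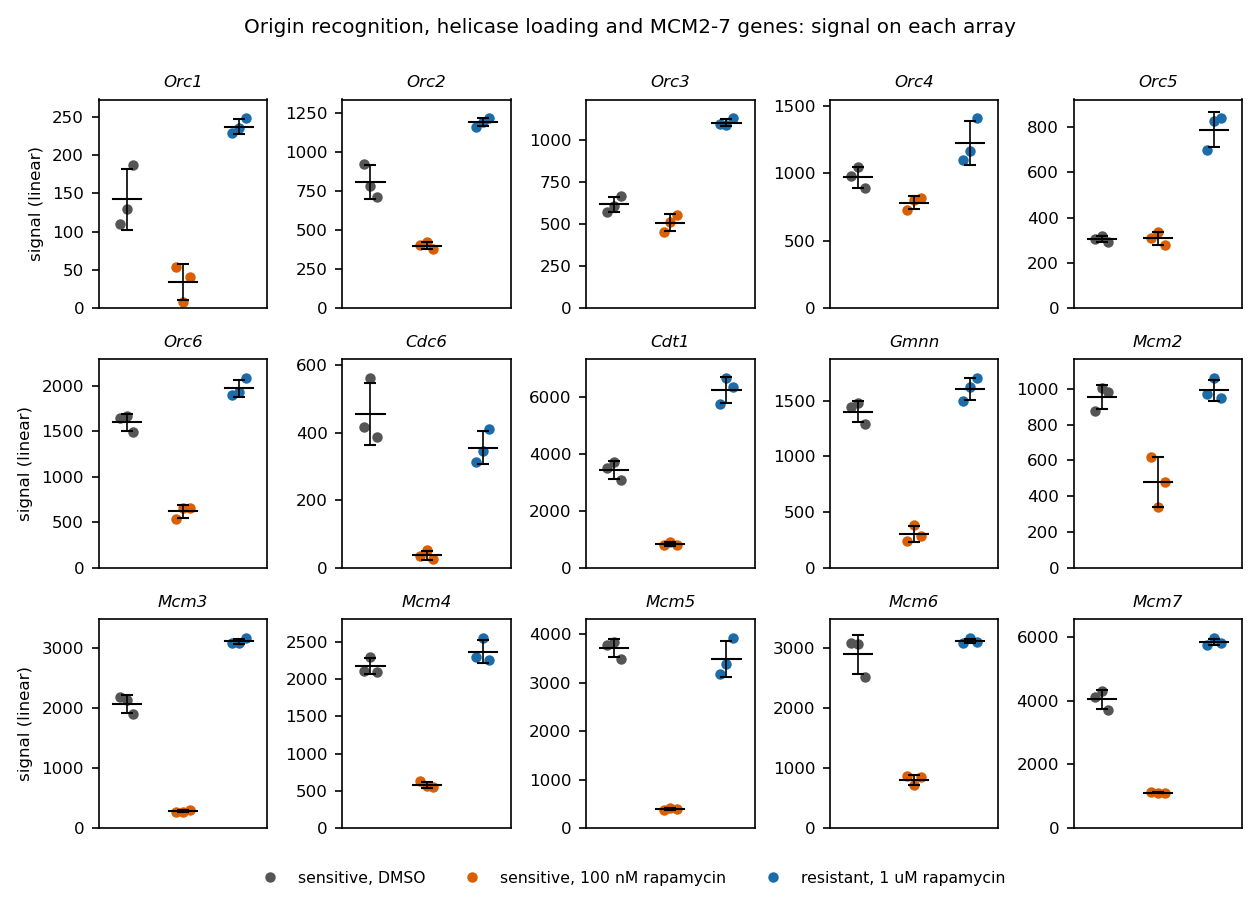
Linear signal on each array (points) with the mean and SD of 3 arrays (black) for the origin recognition subunits, the loading factors and MCM2-7; each panel has its own axis starting at 0, and signals should not be compared between panels. Orc5 has a similar signal in both groups of sensitive cells (means 306 and 308) and a higher one in the resistant line (788), while Mcm5 falls from a mean of 3710 to 396 and is at 3492 in the resistant line.

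The loading factors fell strongly. Cdc6, the ATPase that joins the origin complex to recruit MCM2-7, had signals of 418, 560.0 and 388 in DMSO and 35.0, 52.0 and 25.7 in rapamycin, which left 8.25% of the DMSO mean (-3.15 ± 0.19). Cdt1, which delivers the MCM ring, went from 3521, 3720 and 3082 to 799, 907 and 814 (-2.01 ± 0.09). Its inhibitor geminin, Gmnn, which blocks reloading in S and G2 phase, went from 1438, 1473 and 1292 to 245, 383 and 283 (-2.17 ± 0.12). All 3 pairs of groups were apart, so the loader and its inhibitor were both lower (adjusted p = 7.12e-10, adjusted p = 7.33e-12 and adjusted p = 1.82e-10 in that order).

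All 6 MCM2-7 subunits fell, by -3.17 to -1.001. Mcm5 had signals of 3778, 3852 and 3500 in DMSO and 378, 412 and 399 in rapamycin (-3.17 ± 0.08, adjusted p = 6.52e-14). Mcm3 had 2189, 2135 and 1906 in DMSO and 272, 273 and 298 in rapamycin (-2.82 ± 0.08, adjusted p = 6.52e-14). These 2 subunits kept 10.7% and 13.5% of their DMSO signal. Mcm4, Mcm6 and Mcm7 formed a tighter group, with changes of -1.88 ± 0.08, -1.82 ± 0.09 and -1.84 ± 0.07. Mcm2 changed least, by -1.001 ± 0.14, and its rapamycin arrays were spread out (619, 342 and 482); its other probe set gave -2.16, so the size of its fall depends on the probe set. The further probe sets of Mcm3 to Mcm7 above the filter gave changes of -1.01 to -3.03 and were called lower, save 1 dim Mcm3 probe set at -1.01 (adjusted p = 0.103).

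Among the 9 factors that activate the helicase, all were called lower, with a median of -1.83. Gins1 had signals of 873, 855 and 892 in DMSO and 88.3, 83.8 and 139.5 in rapamycin (-2.92 ± 0.13). Mcm10, which acts as the helicase begins to unwind, gave 571, 569 and 562 against 88.4, 87.5 and 94.9, with little spread in either group (-2.46 ± 0.11). The GINS subunits, which sit together in equal number in the helicase, did not fall equally: Gins2 changed by -2.41 ± 0.10, Gins3 by -1.04 ± 0.18 and Gins4 by -0.53 ± 0.08. Cdc45 changed by -1.48 ± 0.11 and Topbp1, a scaffold for its recruitment, by -1.67 ± 0.08. The kinase Cdc7 and its activator Dbf4 fell by similar amounts, with changes of -1.92 ± 0.15 and -1.83 ± 0.08.

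Polymerase and primase genes were all called lower (9 of 9, median -1.64). Pole2, the second subunit of the leading-strand polymerase epsilon, went from 608, 671 and 585 to 83.1, 85.1 and 90.9 (-2.64 ± 0.15), and its catalytic partner Pole changed by -2.02 ± 0.15. Pola1, the catalytic subunit of polymerase alpha, which extends the RNA primers, went from 659.7, 673 and 655 to 159.6, 170.3 and 118 (-2.05 ± 0.12). Primase subunits Prim1 and Prim2 changed by -2.03 ± 0.07 and -1.64 ± 0.10, and Pola2 by -1.15 ± 0.15. In the lagging-strand polymerase delta, changes were -1.39 ± 0.12 for Pold1, -1.40 ± 0.09 for Pold2 and -1.36 ± 0.13 for Pold3, whose further probe sets gave -1.74 and -0.92. The small subunit Pold4, which is outside the set, changed by -0.34 ± 0.08.

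All 8 genes of the clamp and its loaders were called lower, by very different amounts. Pcna, the sliding clamp, had signals of 11782, 12730 and 10197 in DMSO and 3836, 4233 and 3970 in rapamycin, a change of -1.52 ± 0.09 (adjusted p = 4.48e-10). Dscc1 and Chtf18 belong to the alternative loader that also serves sister chromatid cohesion. Dscc1 went from 508, 519 and 461 to 56.2, 31.0 and 43.4 (-3.13 ± 0.15). A further, much dimmer Dscc1 probe set (DMSO mean 62.1) gave 0.26 and was not called (adjusted p = 0.773). Chtf18 went from 153, 213 and 224 to 38.5, 7.81 and 48.6 (-2.27 ± 0.30), the second rapamycin array lying far below the others. Of the canonical loader, Rfc3, Rfc4 and Rfc5 changed by -1.70 ± 0.12, -2.07 ± 0.11 and -2.02 ± 0.09, but the large subunit Rfc1 by -0.55 ± 0.09 and Rfc2 by -0.65 ± 0.09. The weak response of Rfc1 was seen in all 3 of its probe sets (-0.55, -0.68 and -0.77).

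The proteins that coat single-stranded DNA and finish the lagging strand also differed in size of response. Rpa2 had signals of 933, 852 and 793 in DMSO and 135, 182 and 152 in rapamycin (-2.35 ± 0.11), while its partners in the same trimer changed by -1.18 ± 0.07 (Rpa1) and -0.64 ± 0.07 (Rpa3). Lig1, the ligase that seals Okazaki fragments, went from 1152, 1367 and 1438 to 206, 237 and 249.9 (-2.43 ± 0.10). Fen1, the flap nuclease, went from 1371, 1991 and 1584 to 481, 242 and 309 (-2.25 ± 0.17), with the first rapamycin array highest. The nuclease Dna2 changed by -1.70 ± 0.15 and Rnaseh2a, the catalytic subunit of RNase H2, by only -0.59 ± 0.08.

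Factors that protect or unload the fork had the lowest median of any role with at least 3 genes (-2.56). That median is the value of Timeless, whose other probe set gave -1.66, so the rank depends on the probe set. Lrr1, the receptor through which a ubiquitin ligase removes the helicase at termination, went from 423, 427 and 463 to 45.6, 43.2 and 2.66 (-3.47 ± 0.31). The third rapamycin array was near the floor of the scale. Further Lrr1 probe sets gave -1.94 and -2.40, so the size of its fall depends on the probe set. Clspn (claspin), which carries the checkpoint signal to Chek1, went from 574, 607 and 700.5 to 89.1, 80.4 and 101 (-2.60 ± 0.12). Timeless and Tipin, which bind each other at the fork, changed by -2.56 ± 0.28 and -1.81 ± 0.10, and Wdhd1, which links the helicase to polymerase alpha, by -2.05 ± 0.15. The second rapamycin array of Timeless (22.6) was far below the others (96.2 and 98.9). Chaf1b, a subunit of the histone chaperone CAF-1, went from 738, 805 and 717 to 108, 97.3 and 109.9 (-2.67 ± 0.11).

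**Figure D3:**
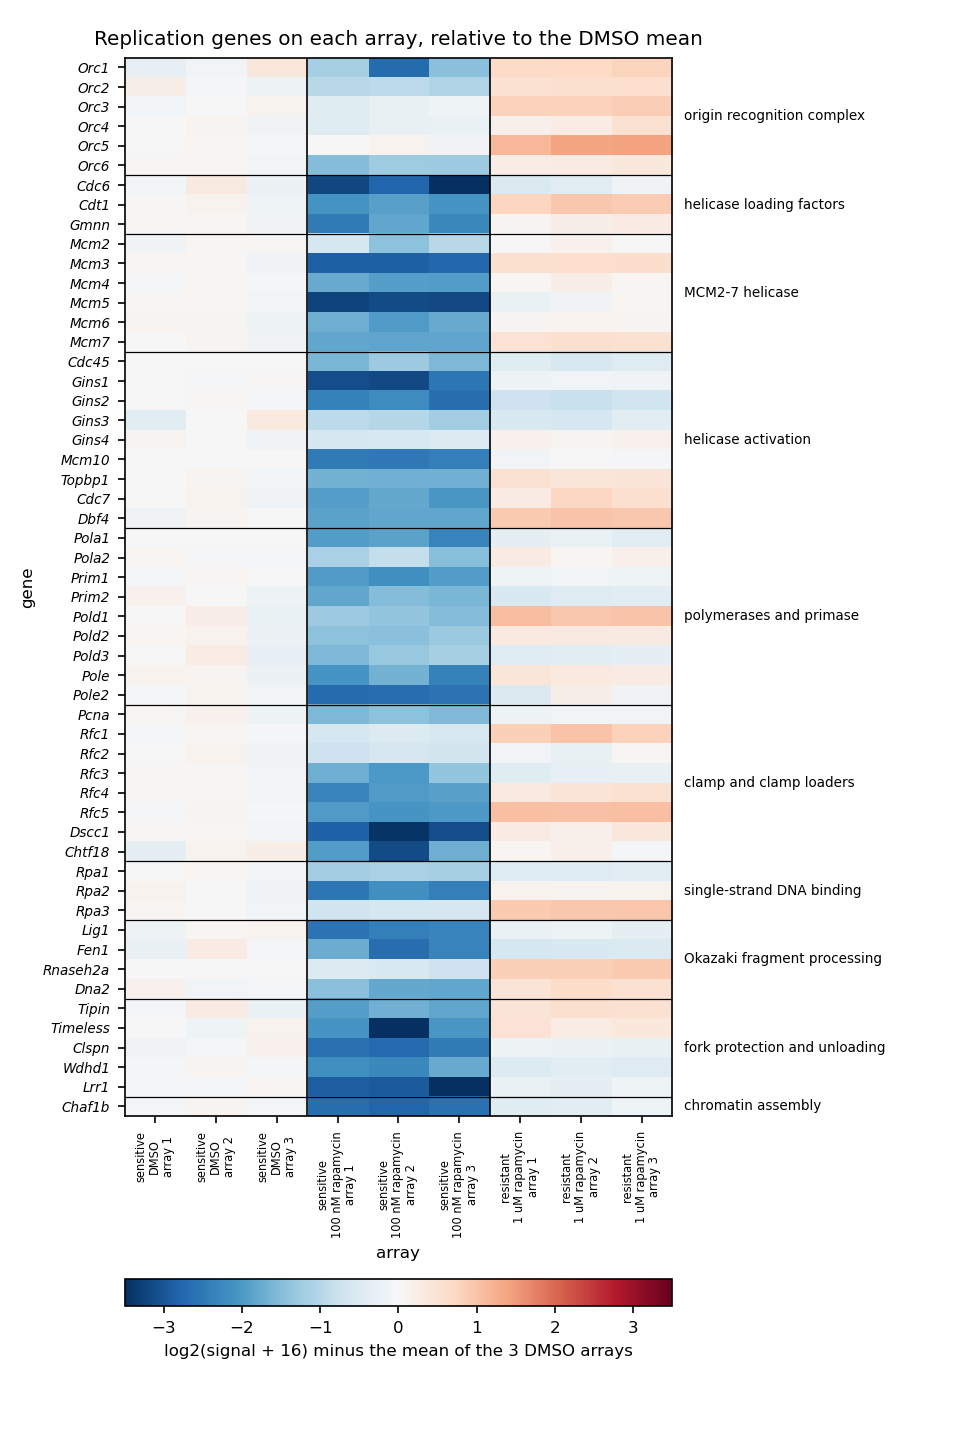
Each of the 54 genes on each of the 9 arrays, as log2(signal + 16) minus the mean of the 3 DMSO arrays, grouped by role (blue lower, red higher). The 3 sensitive rapamycin arrays are blue for every gene but Orc5, pale for Orc3 and Orc4 (changes of -0.28 and -0.30). The resistant arrays are nearer the DMSO level. Their largest rises are those of Orc5 (1.31), Rfc5 (1.03) and Pold1 (1.01), in red, and their largest fall that of Gins2 (-0.73), in pale blue.

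In the resistant line, growing in rapamycin, replication genes lay on both sides of their level in untreated sensitive cells. Against DMSO cells 20 of the 54 were called higher and 12 lower, and 22 were not called (21 higher and 10 lower without the third DMSO array, 25 higher and 5 lower with arrays centred on their 75th percentile). Of all genes 25.9% were called higher and 25.8% lower, so the share called, 32 of 54, is close to the background of 51.8%. The changes were small, with a median of 0.13 against -0.07 for all genes and a range of -0.73 to 1.31. Only 3 members were at least 2-fold higher (5.45% of all genes were) and none was 2-fold lower (9.99% of all genes were). The resistant arrays lay above all DMSO arrays for 25 members and below them for 16 (28.9% and 29.6% of all genes). The lowest member stood at 59.7% of its DMSO signal and the highest at 257%. Among the 22 not called, the 95% interval of the change lay within -0.50 to 0.50 for 14 and within -1 to 1 for 21.

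The origin recognition complex was higher as a group: 5 of 6 subunits were called higher and none lower, and all 6 had resistant arrays above every DMSO array (28.9% of all genes did). Orc5 showed the largest rise of any member, with resistant signals of 698, 826 and 838 against 306, 319.9 and 294 in DMSO cells (1.31 ± 0.11, adjusted p = 1.22e-08). Orc3 rose by 0.83 ± 0.09, Orc2 by 0.56 ± 0.09 and Orc6 by 0.30 ± 0.09. Orc1 had signals of 228, 235 and 248 and a change of 0.71 ± 0.31 that did not pass (adjusted p = 0.07), although it passed under 6 alternatives, among them arrays centred on their 75th percentile (adjusted p = 0.0328) and the third DMSO array left out (0.0314). Orc4 rose by 0.32 ± 0.10 in its brightest probe set, but 2 others were called lower (-0.57 and -0.48), and the average over its probe sets was called lower (-0.24, adjusted p = 0.0278). Without the third resistant array its rise was not called (0.22, adjusted p = 0.0801).

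Cdt1 was higher in the resistant line than in untreated sensitive cells, and Cdc6 and geminin were not called. The Cdt1 signals were 5758, 6651 and 6346 against 3521, 3720 and 3082 in DMSO (0.86 ± 0.09, adjusted p = 1.71e-07), and its second bright probe set gave 1.02. Cdc6 had resistant signals of 313, 345 and 410.1, overlapping the DMSO arrays (-0.33 ± 0.19, adjusted p = 0.161). Gmnn had 1496, 1619 and 1697, just above the DMSO arrays (0.19 ± 0.12, adjusted p = 0.19). In MCM2-7, Mcm3 (3085, 3096 and 3165, 0.58 ± 0.08) and Mcm7 (0.53 ± 0.07) were higher, and Mcm5 (3177, 3384 and 3915, -0.09 ± 0.08), Mcm2, Mcm4 and Mcm6 were not called. Mcm5 was called lower under quantile normalization (-0.22, adjusted p = 0.0144) and with its probe sets averaged (-0.25, adjusted p = 0.0495).

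Helicase activation split in the resistant line. Dbf4 was higher, at 2476, 2630 and 2503 against 1197, 1389 and 1324 in DMSO cells (0.95 ± 0.08, adjusted p = 1.14e-08), as were Cdc7 (0.52 ± 0.15) and Topbp1 (0.47 ± 0.08). Leaving out the second resistant array, Cdc7 was not called (0.42, adjusted p = 0.0727). Cdc45 and the GINS subunits, parts of the active helicase, were lower or not called. Gins2 showed the largest fall of any member, to 923, 892 and 942 from 1543, 1595 and 1477 (-0.73 ± 0.10, adjusted p = 6.81e-06), with no overlap. Cdc45 had 457, 415 and 451 against 614, 620.2 and 622 (-0.47 ± 0.11, adjusted p = 0.0012). Gins3 had 163, 159 and 183 against 187, 247 and 317 (-0.51 ± 0.18, adjusted p = 0.0293), and its call was lost under 3 other settings and without any 1 of 4 arrays, with an adjusted p of up to 0.125 (the third DMSO array left out; 0.0632 without the second, 0.0771 and 0.0879 without the first and the second resistant array). Gins1 (764, 809.6 and 807) and Mcm10 (532, 560.0 and 541) were not called; both lay just below the DMSO arrays, and their 95% intervals were -0.42 to 0.15 and -0.28 to 0.16.

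In 3 complexes, chosen after their values were seen, 1 subunit was called higher and another lower in the resistant line, so the contrast within each pair is a description with no test. In polymerase delta Pold1 was higher, at 903, 823 and 853 against 417, 493 and 354 (1.01 ± 0.12, adjusted p = 1.64e-06), and Pold3 lower (-0.38 ± 0.13, adjusted p = 0.0211). The Pold3 call was lost with arrays centred on their 75th percentile (adjusted p = 0.0985), without the eBayes trend (0.0694), and without the first (0.0514) and the second DMSO array (0.135) or the first resistant array (0.0681). Fitted one by one, its further probe sets gave -0.95, called lower, and -0.31, not called. The log2 ratio of Pold1 to Pold3 within an array was higher by 1.39 on resistant than on DMSO arrays, and changed by -0.03 in sensitive cells in rapamycin. In replication factor C, Rfc5 was higher, at 1438, 1415 and 1436 against 661, 744 and 668 (1.03 ± 0.09), with Rfc1 (0.88 ± 0.09) and Rfc4 (0.44 ± 0.11), while Rfc3 was lower (-0.32 ± 0.12, adjusted p = 0.0369). The Rfc3 call was lost with centred arrays (adjusted p = 0.158), without the trend (0.119), and without each resistant array or the first or the second DMSO array (0.0541 to 0.135). A further Rfc3 probe set, fitted in the same way as those of Pold3, gave -0.48 and was called lower. The ratio of Rfc5 to Rfc3 was higher by 1.36 on resistant arrays and changed by -0.32 in sensitive cells in rapamycin. In replication protein A, Rpa3 was higher, at 2299, 2369 and 2405 against 1286, 1238 and 1130 (0.95 ± 0.07), Rpa1 lower (-0.43 ± 0.07, adjusted p = 7.51e-05) and Rpa2 not called (927, 924 and 940.1, 0.12 ± 0.11). The ratio of Rpa3 to Rpa1 was higher by 1.37 on resistant arrays and also higher, by 0.54, in sensitive cells in rapamycin.

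Among the other fork genes, the primase subunit Prim2 was lower, at 694, 734 and 776 against 1116, 1018 and 894 (-0.45 ± 0.10, adjusted p = 0.00131), as were Pola1 (533, 557 and 509, -0.31 ± 0.12), Fen1 (1062, 1131 and 1146, -0.54 ± 0.17), Wdhd1 (-0.44 ± 0.15), Chaf1b (558, 585 and 675, -0.31 ± 0.11) and Lig1 (1105, 1170 and 1027, -0.25 ± 0.10). The Lig1 arrays overlapped those of DMSO. Rnaseh2a (0.86 ± 0.08), Dna2 (0.55 ± 0.15), Tipin (0.52 ± 0.10) and Pold2 (0.33 ± 0.09) were higher. Pcna (10202, 10743 and 10847, -0.12 ± 0.09), Pole2 (429.9, 716 and 568, -0.15 ± 0.15), Dscc1 (612, 561 and 657, 0.29 ± 0.15), Chtf18 (203, 221 and 190.1), Clspn (548, 536 and 523) and Lrr1 (371, 347 and 393, -0.23 ± 0.31) were not called, nor were Prim1, Pola2, Pole, Rfc2, Gins4 and Timeless. Pcna was called lower without the third DMSO array (-0.21, adjusted p = 0.0131) and under quantile normalization (-0.32, adjusted p = 2.80e-05).

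The rises held better than the falls. Of the 20 higher members 17 kept their call under all alternatives and left-out arrays, the exceptions being Orc4, Cdc7 and Dna2. Of the 12 lower members 4 did so, namely Cdc45, Gins2, Prim2 and Rpa1. Of the arrays left out, the second DMSO array cost the most falls. Without it Gins3, Fen1, Wdhd1, Chaf1b, Pold3, Rfc3, Pola1 and Lig1 were not called (adjusted p = 0.0632 to 0.135). Without the first resistant array Gins3, Wdhd1, Chaf1b, Pold3, Rfc3, Pola1 and Lig1 were not called (adjusted p = 0.0556 to 0.135). Pola1 was not called without any 1 of the 6 arrays compared (adjusted p = 0.0579 to 0.128). With arrays centred on the 75th percentile 5 members were called lower, without the second DMSO array 4 and without the first resistant array 5. Most of these settings use the brightest probe set only. Fitted one by one, further probe sets of Pold3 (-0.95), Gins2 (-0.58), Gins3 (-0.52), Rfc3 (-0.48), Rpa1 (-0.365) and Fen1 (-0.32) were also called lower. Those of Chaf1b (-0.89) and Pold3 (-0.31) were not called.

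**Figure D4:**
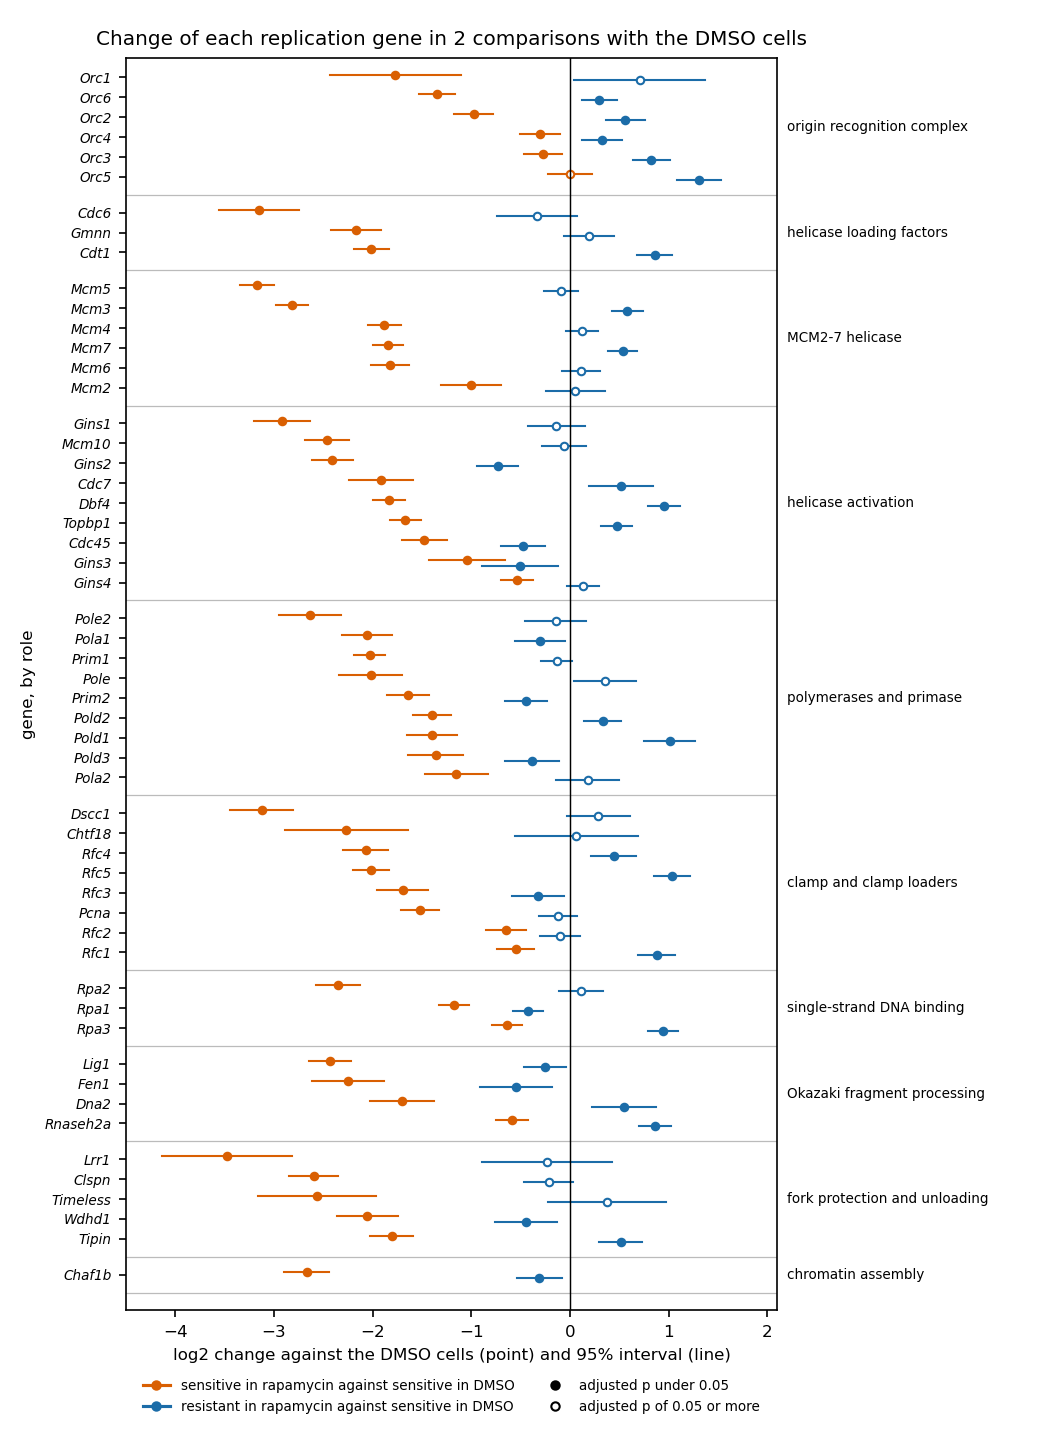
Log2 change (point) and 95% interval (line) of each of the 54 genes against the DMSO cells, by role, for sensitive cells in rapamycin (orange) and the resistant line (blue); filled points passed an adjusted p of 0.05. Both comparisons use the same DMSO arrays. The orange points lie left of 0 for every gene but Orc5, from -3.47 for Lrr1 to -0.28 for Orc3, and the blue points lie on both sides of 0, from -0.73 for Gins2 to 1.31 for Orc5.

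With both groups in rapamycin, at different dose and exposure, every one of the 54 genes was called higher in the resistant line than in the sensitive cells. Of all genes 26.4% were called higher and 30.1% lower, 56.5% together. The groups did not overlap for any member, a pattern in the higher direction that 30.1% of all genes showed. The count was also 54 without the third DMSO array, and 53 without the third sensitive rapamycin array and also without the third resistant array, where Gins3 was not called (adjusted p = 0.0768 and 0.0731). The median difference was 2.07 (-0.08 for all genes), and 48 genes were at least 2-fold higher (10.3% of all genes). The differences were largest for Dscc1 (3.41 ± 0.15), Mcm3 (3.40 ± 0.08) and Lrr1 (3.24 ± 0.31), and smallest for Gins3 (0.54 ± 0.18, adjusted p = 0.0189), Rfc2 (0.55 ± 0.09) and Orc4 (0.63 ± 0.10). The dimmer Dscc1 probe set gave 0.44 and was not called (adjusted p = 0.555). Averaging all probe sets of a gene, Orc4 changed sign (-0.08, adjusted p = 0.450) and Cdc45 was not called (0.17, adjusted p = 0.576). This comparison shares its arrays with the 2 before it and is not independent of them.

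Probe sets of 1 gene mostly moved together. The 54 genes had 113 probe sets, 104 of them above the filter; fitted one by one, 89 of the 104 were called lower in rapamycin, 1 higher (Orc3) and 14 not called. Of 35 genes with at least 2 such probe sets, 32 had the same sign in all of them; the others were Dscc1, Orc3 and Orc4. For the resistant line against DMSO cells 28 of 35 had the same sign, and Orc4 alone had probe sets called in both directions. Resistant against sensitive cells in rapamycin, 32 of 35 had the same sign, the others being Cdc45, Chaf1b and Orc4. In that comparison 93 of the 104 probe sets were called higher, 10 were not called and 1, of Orc4, was called lower (-0.58, adjusted p = 0.000689). Of the probe sets used, 7 carry the suffix s_at or x_at, which marks probes that may match other transcripts, among them those of Mcm3, Mcm5, Fen1 and Lrr1. Further Mcm3, Mcm5 and Fen1 probe sets gave -2.93, -3.03 and -2.58, and those of Lrr1 -1.94 and -2.40.

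Other gene lists are given with the shares of all genes called, which were 15.2% lower and 20.4% higher in rapamycin and 25.8% lower and 25.9% higher in the resistant line against DMSO. Of 37 tested genes of a second list (further initiation, checkpoint, chromatin and topoisomerase genes), 25 fell in rapamycin and 2 rose, with a median of -0.67. The histone chaperone Asf1b (-2.60 ± 0.11), the clamp-binding factor Pclaf (-2.49 ± 0.07) and the checkpoint kinase Chek1 (-2.45 ± 0.18) changed most. In the resistant line against DMSO, 17 rose and 5 fell, led by the checkpoint clamp gene Rad1 (2.00 ± 0.10, from 391 ± 31.9 to 1616 ± 99.8, mean ± SD, n = 3), Pold4 (-1.88 ± 0.08, from 1811 ± 139 to 480.4 ± 19.5), and Mtbp, an initiation factor (1.26 ± 0.11). Between the rapamycin groups 30 were higher and 2 lower (26.4% and 30.1% of all genes), with Mtbp (3.05 ± 0.11), Dtl (2.98 ± 0.12) and Nasp (2.61 ± 0.08) first.

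Of 11 tested genes listed under deoxynucleotide supply, 8 fell in the treated sensitive cells and 1 rose, Samhd1 (0.28 ± 0.08). Thymidine kinase Tk1 (-3.001 ± 0.09), the ribonucleotide reductase subunit Rrm2 (-2.72 ± 0.08) and the salvage kinase Dck (-2.54 ± 0.13) changed most. In the resistant line 4 of 11 were higher and 3 lower than in DMSO cells, near the shares of all genes (25.9% and 25.8%). Samhd1 was among the lower ones (-0.38 ± 0.08). Among the 11 genes Dctd (1.47 ± 0.13), Dut (1.08 ± 0.09) and Dtymk (0.69 ± 0.07), all on the route to thymidine nucleotides, changed most. Translesion polymerases and their regulators, which copy damaged templates, were mostly not called in rapamycin: 2 of 10 fell, Rad18 (-1.38 ± 0.15) and Polh (-1.07 ± 0.10). In the resistant line 3 of these 10 were higher, Poln (1.35 ± 0.40), Rev1 (1.12 ± 0.13) and Mad2l2 (0.92 ± 0.09), and 1 was lower, against 25.9% and 25.8% of all genes; the share higher is near that background.

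Of 22 regulators of S-phase entry 14 fell and 4 rose in rapamycin (15.2% and 20.4% of all genes). The cyclins Ccne2 (-2.43 ± 0.14) and Ccna2 (-2.36 ± 0.09) and the repressor E2f8 (-2.17 ± 0.18) fell most. Against DMSO cells, 9 of the 22 were higher in the resistant line (25.9% of all genes) and 5 lower, the latter near the 25.8% of all genes. The largest changes were those of Myc (3.81 ± 0.13), Ccnd1 (-1.32 ± 0.08) and E2f4 (0.93 ± 0.17). Between the rapamycin groups 17 were higher and 3 lower (26.4% and 30.1% of all genes).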

How the data were processed

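RNA of 9 arrays was analysed, 3 per group, with groups and replicate numbers taken from the sample titles. The authors deposited a linear intensity (signal) for each probe set; the submitters' processing notes name GCOS 1.4. Sources used here do not give its summary algorithm or settings. Each array had a 2% trimmed mean of 250, from the values. Of 45101 probe sets, 34945 carried 1 gene symbol in the platform annotation and were used.

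Signals were analysed as log2(signal + 16) without rescaling, since 75th percentiles spanned 0.17, under a limit of 0.2. The filter kept probe sets whose average exceeded the 40th percentile, a signal of 22.2, and a gene was represented by its brightest probe set. All 9 arrays and 12715 genes entered 1 model of group means (limma 3.58.1, R 4.3.3, with eBayes and an intensity trend). A call is a Benjamini-Hochberg adjusted p below 0.05 within a comparison; every adjusted p is from this test or the named alternative. The number of arrays limits the precision. The fit was tested on simulated data. The members and lists were chosen with earlier results of these data known. Array values are given for the members that changed most in each role or in the resistant line, and for Cdc6, Cdt1, Gmnn, Orc1 and Pcna. From the other lists up to 3 called genes of the largest change per comparison are named, and Samhd1 in addition. Same-numbered arrays of different groups did not deviate together, so no pairing was assumed. Promoter sequences are from RefSeq (GRCm38.p6). Chaf1a and Ssrp1 were not analysed here. Alternatives were another normalization (75th percentile, quantile), pseudocounts of 64 and 1, no filter or the 60th percentile, the mean of probe sets, eBayes without a trend, a replicate block, and each array left out.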

Additional observations from a re-analysis of the deposited data

How the results depend on the processing

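Falls in rapamycin (53 main) numbered 51 to 53 over all alternatives and left-out arrays, and rises of the resistant over the sensitive cells in rapamycin (54 main) 52 to 54. Against DMSO cells the count of higher members, 20 to start with, was 19 to 25, and that of lower members, 12 to start with, was 4 to 14, namely 5 with arrays centred on the 75th percentile, 7 without a trend in eBayes and 4 to 12 with 1 array left out. All members called in that comparison numbered 24 to 35 with 1 array left out. A change of sign was counted only where a call was made under either setting: when all probe sets of a gene were averaged, Orc3 reversed in rapamycin (0.14), and Orc4 in the resistant line against DMSO (-0.24) and against sensitive cells in rapamycin (-0.0829).

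The median change of the members in rapamycin (-1.84) was -1.70 with a pseudocount of 64 (as log2(signal + 64)), -1.91 with a pseudocount of 1, -1.72 with the mean of probe sets, and -1.92 to -1.81 with 1 array left out. Against DMSO cells the resistant median (0.13) was 0.22 with centred arrays and 0.12 to 0.18 with 1 array left out. Between the rapamycin groups (2.07) it was 2.21 with centred arrays (where the median of all genes moved from -0.08 to 0.05), 1.84 with a pseudocount of 64, 1.74 with the mean of probe sets and 2.00 to 2.15 with 1 array left out. A replicate block left 53 lower members in rapamycin, 21 higher and 12 lower in the resistant line against DMSO and 54 higher between the rapamycin groups; it added the call of Pole (adjusted p = 0.0336). Same-numbered arrays correlated by -0.0845 to 0.0151 in their deviations from the group means, so the numbers do not pair the arrays. The causes of these shifts were not tested, beyond the pseudocount, which by construction shrinks changes of dim genes. Depth is not defined for arrays: signals near 22.2 or below, such as the third rapamycin array of Lrr1, are limited by background.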
